A study of Mus musculus with 3 samples.

Results

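The solute carriers are the membrane proteins that move amino acids, sugars, organic acids, metals, vitamins and inorganic ions into and out of cells and organelles. The 19 genes described here are those whose symbol starts with Slc and a digit in the authors' comparison of *Tet1* knockdown (KD) with nontarget (NT) ATDC5 cells, with 1 probe set each. They make up 19 of the 1330 named probe sets in that table, which holds 1524 of the 35512 probe sets of the arrays. The authors kept a probe set in it only if the lower 90% bound of its fold change between *Tet1* KD and NT was at least 1.5 and its difference was over 100 intensity units. Each of the 19 was therefore already selected on the contrast described below, and neither their number, nor their directions, nor the share that passes a test is a finding about solute carriers. Slc genes that did not meet those limits are unnamed in the files used here and were not analysed. For its own list of changed genes the paper names a limit of 2.5-fold. Membership here is therefore not the paper's call of differential expression.

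ATDC5 is a mouse teratocarcinoma-derived chondroprogenitor line that forms cartilage nodules when cultured with insulin, transferrin and selenium. Cells of the wild-type line received a lentiviral short hairpin RNA and were collected on day 15 of differentiation. The labels place the transduction at day 0, and the methods place it, with the puromycin selection, before differentiation began. There were 2 *Tet1* KD arrays, Tet1sh1 and Tet1sh2, each with its own hairpin (hairpin 1 and hairpin 2), and 1 NT array with a non-target hairpin. Each array is 1 culture pool selected with puromycin, no hairpin was repeated, and the NT value has no replicate. The p-values given here rest on the spread between the 2 *Tet1* arrays, moderated towards that of probe sets of similar intensity. They are therefore not a measure of a gene's own spread. Between the 2 *Tet1* arrays the hairpin, the culture and the hybridization all differ.

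*Tet1* encodes an enzyme that oxidizes methylated cytosine to hydroxymethylcytosine. Its 3 named probe sets were selected on the same contrast, so they are no independent check of the knockdown. On each of them *Tet1* had lower values under both hairpins than in NT. On its brightest probe set it measured 843 units under hairpin 1 and 726 units under hairpin 2, against 1626 units in NT, which did not pass the test used below (limma adjusted p = 0.133). Median intensities over all probe sets were 279.6, 264 and 305 units under hairpin 1, hairpin 2 and in NT. Of 14 chondrocyte markers, 5 were named in the table, all of them lower in *Tet1* KD, and their summed intensity was 4429 and 3011 units under the hairpins against 11672 units in NT. The 2 named fibroblast markers, of 4, summed to 9150.0 and 6225 units under the hairpins against 2321 units in NT. The 1 named osteoblast marker of 4, *Ibsp*, was higher, with 4500 and 3901 units under the hairpins against 1959.8 units in NT, and the 1 named adipocyte marker of 4, *Fabp4*, was lower, with 179 and 163 units against 838 units in NT. Of 4 endothelial and 3 muscle markers 0 were named. A marker was named only if it met the authors' limits on the same contrast. These values therefore leave out unchanged markers and do not measure cell composition. *Sox9*, on the chondrocyte list, was not affected according to the paper. In bulk RNA, fewer cells of a type and less RNA per cell cannot be told apart, and the part of cell composition in the values below was not tested.

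Solute carriers are grouped into numbered families by sequence, and the family number says roughly what is carried. Amino acid carriers set the supply for matrix protein synthesis and for glutathione, and some of them work only as a light chain bound to a shared heavy chain. In cartilage, carriers also bring in the ascorbate needed to hydroxylate collagen and the ions that set pH and calcium. By substrate the 19 genes fell into 8 classes: 8 carry amino acids, 3 organic acids or organic ions, 2 inorganic ions, 2 metals, and 1 each a vitamin, an amine or the substrates of a mitochondrial carrier. The remaining one, *Slc9a3r1*, encodes a scaffold protein and no carrier.

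Promoter sequences are shown for 3 of the genes, so that their CpG content can be read. They are the 2 with the largest rise and the lower gene with the largest fall among those in the RefSeq promoter table of GRCm38.p6. TET1 acts on methylated cytosine, and these arrays do not measure whether any CpG shown was methylated. Each window runs from 250 bases before to 50 bases after an annotated start, and every CpG is in capitals. The *Slc43a1* window is chr2:84840073-84840372 on the + strand, that of *Slc16a4* is chr3:107290980-107291279 on the + strand, and that of *Slc7a7*, the richest in CpG of its 5 windows, is chr14:54417630-54417929 on the - strand.
Slc43a1: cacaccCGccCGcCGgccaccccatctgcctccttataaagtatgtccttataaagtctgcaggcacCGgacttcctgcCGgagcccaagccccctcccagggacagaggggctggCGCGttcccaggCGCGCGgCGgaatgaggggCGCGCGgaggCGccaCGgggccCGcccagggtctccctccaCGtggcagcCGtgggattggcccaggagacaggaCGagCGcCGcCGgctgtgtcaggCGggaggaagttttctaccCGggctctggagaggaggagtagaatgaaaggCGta
Slc16a4: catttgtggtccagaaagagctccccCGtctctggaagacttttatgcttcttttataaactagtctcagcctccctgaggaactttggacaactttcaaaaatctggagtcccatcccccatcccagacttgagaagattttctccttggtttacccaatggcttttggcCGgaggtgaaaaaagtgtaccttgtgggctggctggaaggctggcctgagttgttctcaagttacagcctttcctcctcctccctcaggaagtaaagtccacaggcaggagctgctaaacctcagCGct
Slc7a7: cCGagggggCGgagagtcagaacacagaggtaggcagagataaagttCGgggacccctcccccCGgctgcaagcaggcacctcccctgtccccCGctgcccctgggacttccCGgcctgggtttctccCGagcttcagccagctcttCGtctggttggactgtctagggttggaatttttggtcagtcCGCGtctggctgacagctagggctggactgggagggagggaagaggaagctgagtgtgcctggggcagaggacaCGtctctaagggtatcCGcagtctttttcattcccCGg

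The *Slc43a1* window held 26 CpG, more than 83.1% of the 32851 promoter windows of all genes, and the *Slc16a4* window held 3. The *Slc7a7* window held 13 CpG. Of the 19 genes, 14 had a window in the table, 24 windows in all, with 3 to 50 CpG and a median of 14, against a median of 7 over all windows. The richest windows were those of *Slc4a4* (50 CpG), *Slc24a3* (43 CpG) and *Slc23a2* (37 CpG), and *Slc1a3* and *Slc7a11* had 3 and 4. These medians are a description. The reference windows were not matched by gene type or expression, and a gene with several windows counts more than once. *Slc40a1*, *Slc22a21*, *Slc39a14*, *Slc6a2* and *Slc38a3* had no entry.

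**Figure D1:**
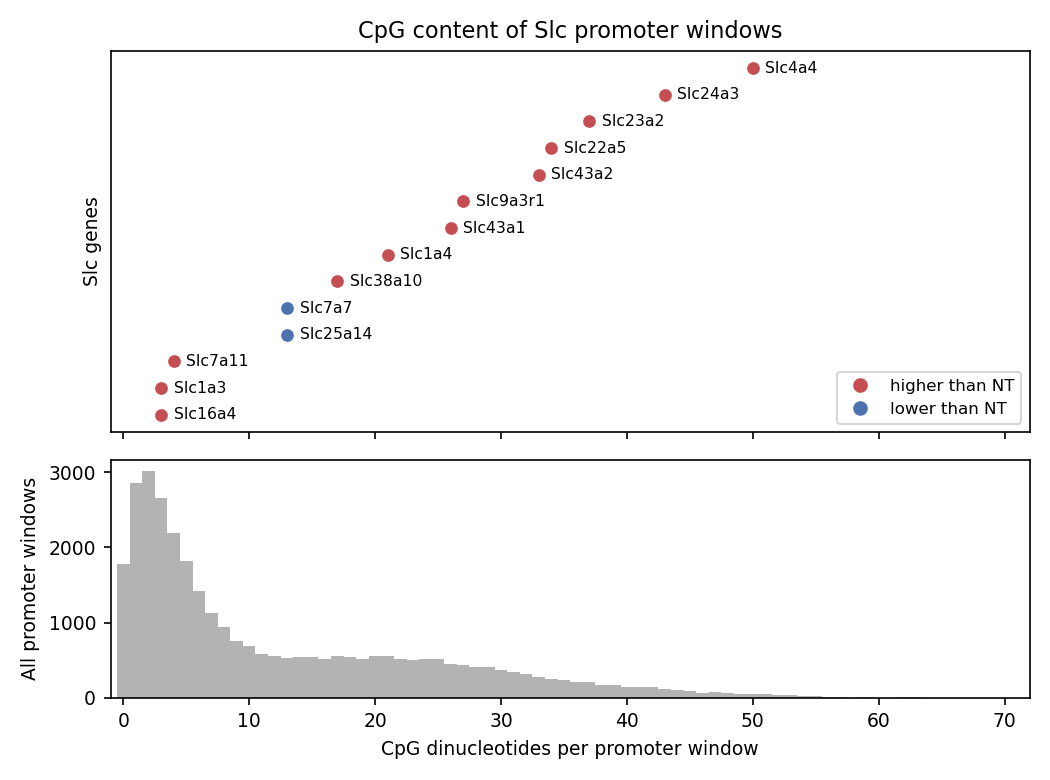
CpG dinucleotides in the richest promoter window of each of 14 Slc genes (upper panel, coloured by whether the gene was higher or lower than NT) and in all 32851 promoter windows (lower panel, number of windows). The genes run from 3 CpG in *Slc16a4* and *Slc1a3* to 50 CpG in *Slc4a4*.

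Motifs were searched on both strands of the same windows. The interferon-stimulated response element was in 0 of the 24 windows and in 3.44% of all promoters. TGATGNAAT, a form of the amino acid response element, was in 0 of the 24 and in 0.965% of all. Other forms of that element were not searched. The STAT site TTCNNNGAA was in the windows of *Slc1a3* and *Slc7a11* (8.30% of all promoters), and TATAAA in those of *Slc43a1*, *Slc16a4* and *Slc1a3* (13.6% of all). A match or its absence concerns these letters in these windows alone.

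Over the whole set, 14 genes were higher and 5 lower in *Tet1* KD than in NT. On all 19 both *Tet1* arrays lay on the same side of the NT array. The same held for all 1311 other named probe sets, selected on the same contrast. It held for 20504 of the 27311 probe sets that averaged 100 units or more. A limma fit was made over the 27311 probe sets that averaged 100 units or more, of which 478 passed at an adjusted p of 0.05, which is 1.75% (1.36% higher and 0.388% lower). Of the 19 Slc genes 8 passed, 6 higher and 2 lower, a count that the authors' selection on the same contrast makes uninformative. Both counts depended on including probe sets whose identifiers are lower than that of any named probe set. Without them, 5.28% of 23912 tested probe sets passed, and 16 Slc genes. The shares of all probe sets given below include them and were not recalculated. With 1 residual degree of freedom the fit made more false calls on simulated data than its threshold allows, so adjusted p-values near 0.05 carry little weight. At least 2-fold under both hairpins were 13 genes, 10 higher and 3 lower, against 2.71% of all tested probe sets. A 2.5-fold difference of more than 100 units was reached by 5 genes, 3 higher and 2 lower, against 1.74% of all probe sets (1.28% higher and 0.459% lower). These are the paper's size limits without its confidence bound. At 1.5-fold all 19 reached it, as their selection required, against 11.5% of all probe sets (5.59% higher and 5.94% lower).

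Of the Slc genes 73.7% were higher, against 60.0% of the other 1311 named probe sets in the same comparison. The higher Slc genes had a median log2 fold of 1.19, and the lower ones of -1.20. The other named probe sets had medians of 1.20 and -1.03. The sizes of the Slc differences were thus close to those of the other genes selected in the same way. The smallest differences in the set were those of *Slc1a4* and *Slc25a14*, with log2 folds of 0.74 and -0.79. Genes just outside the authors' limits are unnamed.

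**Figure D2:**
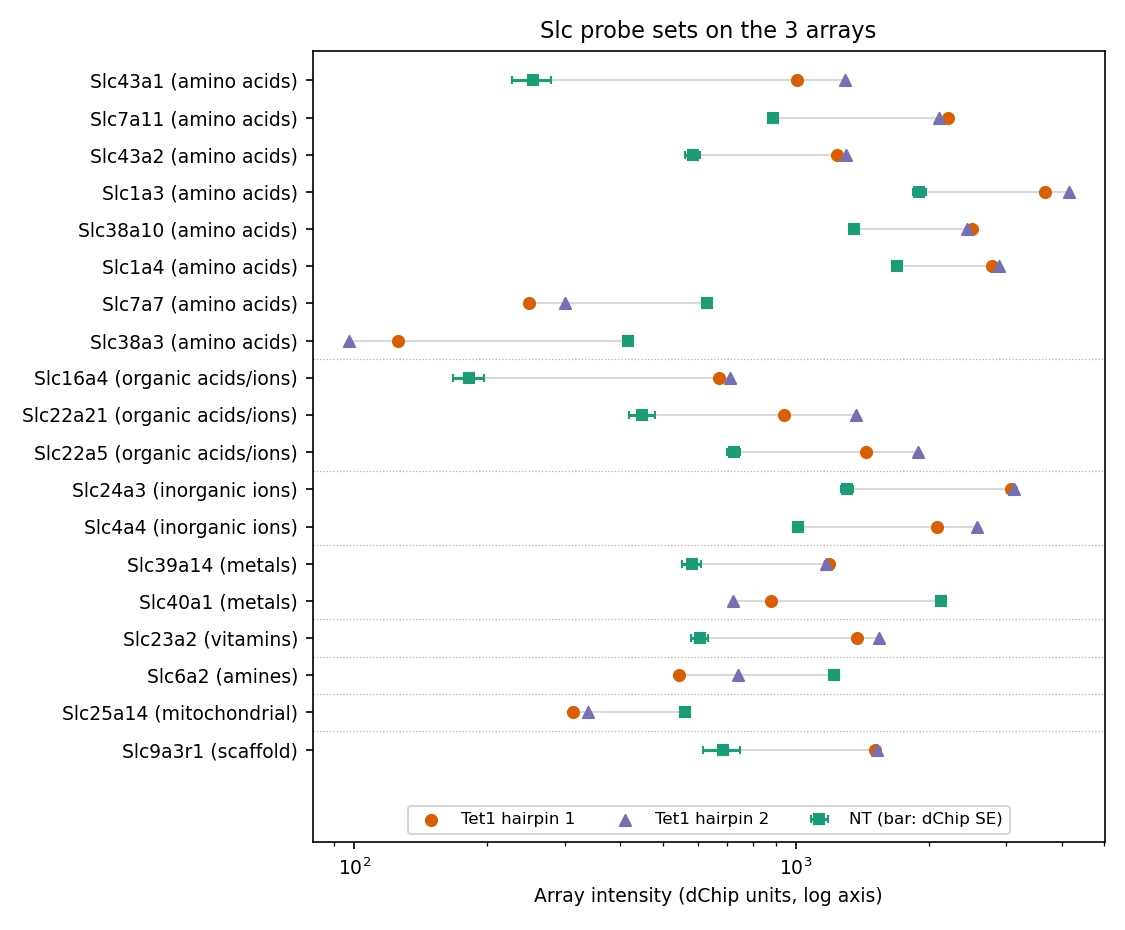
Array intensity (dChip units, log axis) of each Slc probe set under *Tet1* hairpin 1 (circles), under hairpin 2 (triangles) and in NT (squares, with the dChip standard error as a bar), grouped by substrate. In all 19 rows the NT square lies outside the range of the *Tet1* symbols, to the left in 14 and to the right in 5.

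Amino acid carriers were the largest class, and 6 of the 8 were higher and 2 lower. *Slc43a1*, which encodes the facilitative carrier LAT3 for leucine and other large neutral amino acids, had the largest rise of the set. It measured 1005 units under hairpin 1 and 1294 units under hairpin 2, against 254 units in NT, where the dChip standard error (SE) of the array value was 25.6 units. Both *Tet1* arrays lay well above NT, and its log2 fold was 2.17 ± 0.34 (SE; limma adjusted p = 0.00288). Its paralogue *Slc43a2*, the carrier LAT4, measured 1239 and 1299 units under the hairpins, against 584 units in NT. The log2 fold of *Slc43a2* was 1.12 ± 0.31 (SE) and missed the threshold (limma adjusted p = 0.106).

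*Slc7a11* encodes xCT, the light chain of the cystine-glutamate exchanger that feeds glutathione synthesis. It measured 2207 units under hairpin 1 and 2109 units under hairpin 2, against 886 units in NT, and rose, with a log2 fold of 1.28 ± 0.28 (SE; limma adjusted p = 0.0299). *Slc7a7*, the light chain y+LAT1 of another such exchanger, which exports cationic amino acids, lay on the other side of NT. It measured 249 and 301 units under the hairpins, against 630.1 units in NT, and its difference of -1.20 ± 0.37 (log2, SE) missed the threshold (limma adjusted p = 0.148). The light chains of the same family thus differed in direction on both arrays. The shared heavy chain gene, *Slc3a2*, is not in the table.

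*Slc1a3*, the sodium-driven glutamate carrier GLAST, measured 3664 units under hairpin 1 and 4150.4 units under hairpin 2, against 1906 units in NT, and rose, with a log2 fold of 1.03 ± 0.24 (SE; limma adjusted p = 0.0458). Its relative *Slc1a4*, the neutral amino acid carrier ASCT1, measured 2776 and 2892 units under the hairpins, against 1692 units in NT. That difference did not pass (limma adjusted p = 0.221). The hairpin arrays lay close together for *Slc1a4* and further apart for *Slc1a3*.

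*Slc38a3*, the sodium-coupled glutamine carrier SNAT3, had the largest fall of the set. It measured 126 units under hairpin 1 and 97.1 units under hairpin 2, against 416 units in NT, a log2 fold of -1.91 ± 0.42 (SE; limma adjusted p = 0.0295). Both *Tet1* values were near the 100-unit level below which probe sets are dim, and its SE was the largest of the set. Its family member *Slc38a10* went the other way. It measured 2502 and 2439 units under the hairpins, against 1351 units in NT, and the difference did not pass (limma adjusted p = 0.149).

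Of 16 genes of the amino acid response that ATF4 drives, a program known to include amino acid carriers, 3 were named. All 3 were higher in *Tet1* KD and 1 passed limma, *Chac1*, a glutathione-degrading enzyme, with 2683 and 3566 units under the hairpins against 1155 units in NT (limma adjusted p = 0.0142). For *Ddit3* and *Sesn2* the log2 folds were 1.04 and 0.91, and neither passed. *Asns* and *Trib3*, other genes of that list, are not in the table. Genes were named only if they met the authors' limits, and 60.0% of the 1311 named probe sets outside the Slc set were higher. Whether this program relates to the carrier differences was not tested.

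**Figure D3:**
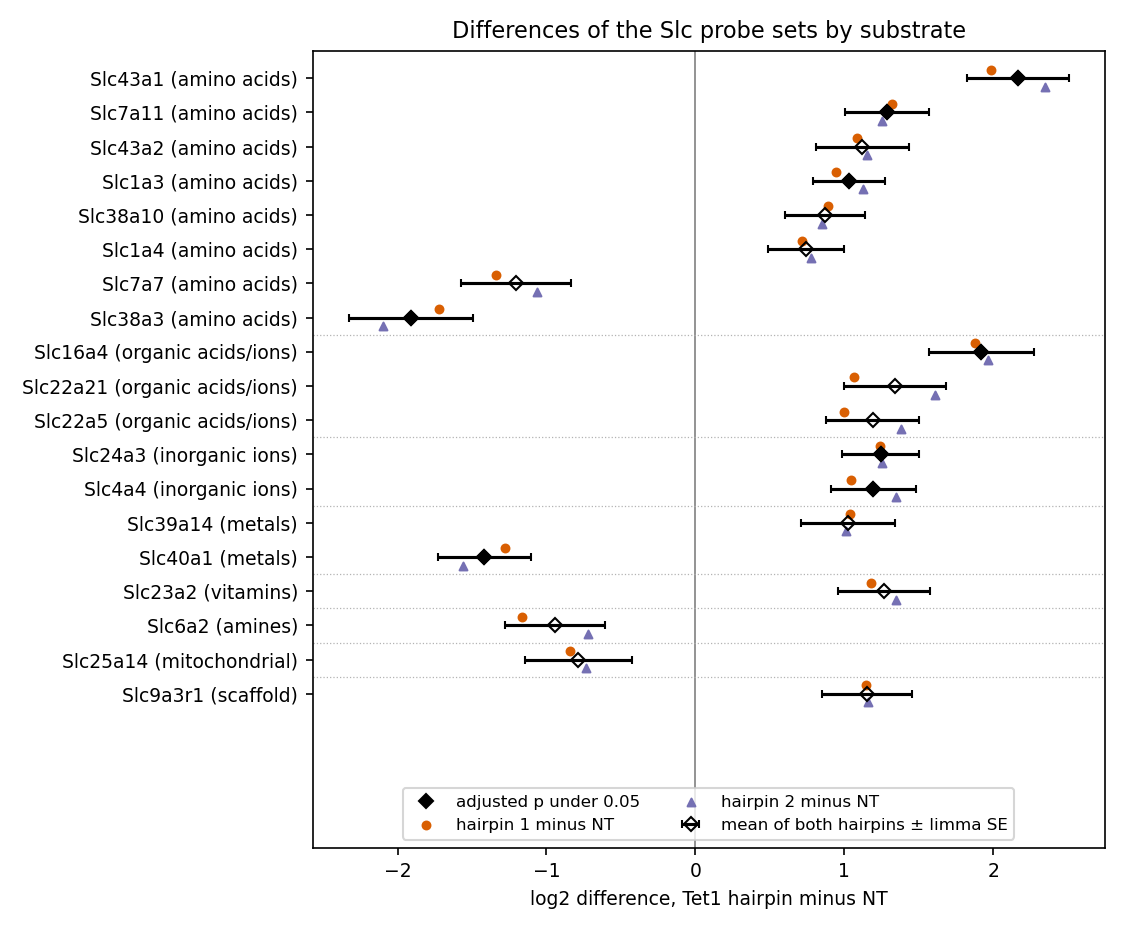
log2 difference of each Slc probe set from NT, for hairpin 1 (circles), hairpin 2 (triangles) and their mean (diamonds, bars are the limma SE, filled where the adjusted p was under 0.05). Mean log2 folds run from -1.91 in *Slc38a3* to 2.17 in *Slc43a1*, and 8 diamonds are filled.

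The 3 carriers of organic acids and organic ions were all higher. *Slc16a4*, a member of the monocarboxylate carrier family whose substrate is not settled, measured 669.8 units under hairpin 1 and 710.2 units under hairpin 2, against 182 units in NT, where the dChip SE was 14.8 units. Its log2 fold was 1.92 ± 0.35 (SE; limma adjusted p = 0.00977), the largest rise after that of *Slc43a1*. *Slc22a5*, the carnitine carrier OCTN2, measured 1444 and 1889.7 units under the hairpins, against 724 units in NT. *Slc22a21*, a carnitine carrier described in mouse as OCTN3, measured 940.3 and 1372 units under the hairpins, against 449 units in NT. Neither passed (limma adjusted p = 0.0772 for *Slc22a5* and 0.0724 for *Slc22a21*).

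In the RefSeq annotation *Slc22a5* and *Slc22a21* are neighbours on chromosome 11 with 0 protein-coding genes between them. Both were higher under hairpin 2 than under hairpin 1, by 0.39 and 0.55 on the log2 scale. They are closely related genes, and whether their probes share signal was not tested, so both values are uncertain. Of 12 genes of carnitine use and fatty acid oxidation 2 were named, and both were lower. *Ppargc1a*, a coactivator of mitochondrial genes, measured 122 and 86.5 units under the hairpins against 629 units in NT on its brighter probe set and fell by 2.61 on the log2 scale (limma adjusted p = 0.00336). *Acadm*, a dehydrogenase of fatty acid oxidation, differed by -0.96 (log2) without passing.

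Both carriers of inorganic ions rose. *Slc24a3*, the potassium-dependent sodium/calcium exchanger NCKX3, measured 3079 units under hairpin 1 and 3113 units under hairpin 2, against 1307 units in NT. The hairpin arrays were nearly equal, and the log2 fold was 1.24 ± 0.26 (SE; limma adjusted p = 0.0208). *Slc4a4*, the sodium bicarbonate cotransporter NBCe1, measured 2087 and 2569 units under the hairpins, against 1011 units in NT, and rose, with a log2 fold of 1.20 ± 0.28 (SE; limma adjusted p = 0.0482). *Atp1b1*, a subunit of the sodium pump that supplies the gradient such carriers use, also rose, with 5698 and 6522 units under the hairpins against 2897 units in NT (limma adjusted p = 0.0178).

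The carriers of metals went opposite ways. *Slc40a1* encodes ferroportin, the only known exporter of iron from cells, and *Slc39a14* encodes ZIP14, an importer of zinc, iron and manganese. *Slc40a1* measured 879 units under hairpin 1 and 722 units under hairpin 2, against 2128 units in NT, where the dChip SE was 11.9 units, the smallest share of the value in the set at 0.561%. Its log2 fold was -1.42 ± 0.31 (SE; limma adjusted p = 0.0299). *Slc39a14* measured 1191 and 1171 units under the hairpins, against 581 units in NT, and did not pass (log2 fold 1.02 ± 0.31, SE; limma adjusted p = 0.15).

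Of 17 genes of iron handling, 2 were named in the table and both rose. *Lcn2*, which binds iron-loaded siderophores, measured 2529 and 2384 units under the hairpins against 912 units in NT, and *Steap4*, a metal reductase, 758 and 546 units against 199 units in NT (limma adjusted p = 0.0134 for *Lcn2* and 0.0294 for *Steap4*). Of 4 genes of zinc handling, 0 were named. The cultures were of the ATDC5 line and not of a tissue that holds macrophages. Of 9 genes used as macrophage and leukocyte markers, 3 were named and passed limma, in opposite directions. *Cd68* was lower, with 1458 and 819.6 units under the hairpins against 4424 units in NT, while *Lyz2* was higher, with 1974 and 1400.0 units against 488 units in NT, and *Lyz1* likewise, with 1079 and 694 units against 251 units in NT. Their summed intensity, 4511 and 2914 units under the hairpins against 5163 units in NT, follows *Cd68* alone. Whether these genes relate to the *Slc40a1* difference was not tested.

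*Slc23a2*, the sodium-coupled ascorbate carrier SVCT2, measured 1376 units under hairpin 1 and 1545 units under hairpin 2, against 607 units in NT. Ascorbate is a cofactor of collagen prolyl hydroxylases and of TET enzymes. The log2 fold was 1.27 ± 0.31 (SE) and missed the threshold (limma adjusted p = 0.0557). *Slc9a3r1*, the scaffold NHERF1 that tethers transporters and receptors at the membrane, measured 1509.8 and 1526 units under the hairpins, against 683 units in NT. It did not pass either (limma adjusted p = 0.0782), and its NT value had one of the larger dChip errors of the set, 9.56%.

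*Slc6a2*, the noradrenaline carrier, and *Slc25a14*, a mitochondrial carrier also called UCP5, were lower. *Slc6a2* measured 545 units under hairpin 1 and 741 units under hairpin 2, against 1221 units in NT. *Slc25a14* measured 313 and 338 units under the hairpins, against 562 units in NT. Neither passed (limma adjusted p = 0.25 for *Slc6a2* and 0.436 for *Slc25a14*).

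The selection used a bound on the contrast with NT, so it may also have favoured probe sets whose hairpins lay close together. The difference between the *Tet1* arrays is given as a description of how far the hairpins lay apart. The size of that difference was 0.17 on the log2 scale in the median Slc gene, against 0.19 in the other named probe sets and 0.26 in all tested probe sets. In 11 of the 19 genes it was under the median of all tested probe sets. It was largest in *Slc22a21* (0.55), *Slc6a2* (0.44) and *Slc22a5* (0.39), and smallest in *Slc9a3r1* and *Slc24a3* (0.02 each). Hairpin 2 was above hairpin 1 in 11 of the 14 higher genes and in 3 of the 5 lower genes, 14 of 19 in all. That was so for 737 of the 1311 other named probe sets and for 12391 of the 27311 tested. With 1 array per hairpin these differences have no test.

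**Figure D4:**
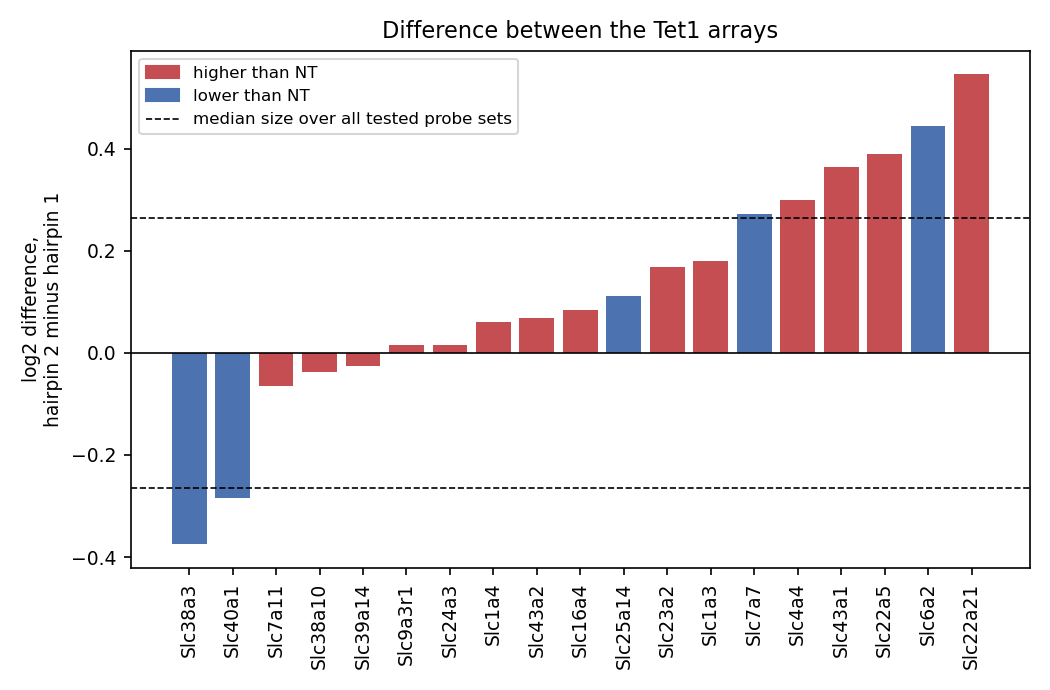
log2 difference between hairpin 2 and hairpin 1 for each Slc probe set, coloured by whether the gene was higher or lower than NT. The dashed lines mark the median size over all tested probe sets, 0.26 in either direction, and 8 of the 19 bars pass them.

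The dChip SE of the NT array ranged from 0.561% of the value in *Slc40a1* to 10.1% in *Slc43a1*, with a median of 3.22%, against 3.03% in the other named probe sets. It covers the fit of the probes within that array and no variation between cultures. Every difference between the *Tet1* mean and NT was larger than that error, as the authors' selection by a bound required.

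Other transporters in the same table have symbols that the rule did not take. The organic anion carriers of the Slco family, themselves solute carriers, had 3 named genes. *Slco1a5* measured 685 and 319 units under the hairpins against 1509 units in NT (limma adjusted p = 0.0587), *Slco3a1* was higher and did not pass, and *Slco1a4* was too dim to be tested. Of the ABC transporters 2 were named, and *Abca9* rose, with 605 and 676 units under the hairpins against 211 units in NT (limma adjusted p = 0.0318). Aquaporins had 0 named genes. Of 15 genes of glycolysis and lactate use 3 were named. The higher ones, *Hk1* and *Pfkfb3*, had log2 folds of 0.66 and 0.95, and *Ldhb*, a lactate dehydrogenase subunit, had -1.34 and -1.16 on its probe sets, and none passed. Of 10 genes of sulfate and phosphate handling 2 were named, *Phex*, which rose, and *Enpp1*, which differed by -0.83 (log2) without passing. These lists are read from a table of selected probe sets, so they do not describe their pathways.

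The calls depended on how the arrays were scaled and which probe sets were tested. The direction of all 19 genes did not change under any setting or with either hairpin alone, which selection on the same contrast favoured. *Slc43a1* and *Slc16a4* passed in 6 of 8 other settings, and *Slc1a4*, *Slc6a2* and *Slc25a14* in none. After quantile normalization those 2 genes were the ones that passed, and after median centring they passed with *Slc24a3*. Of the other genes that had passed, *Slc40a1* had a limma adjusted p of 0.102 after quantile normalization and 0.134 after median centring. For *Slc38a3* these were 0.131 and 0.0626, and for *Slc7a11* 0.0986 and 0.0558 (limma adjusted p in each case). In the same order limma gave adjusted p of 0.132 and 0.0823 for *Slc4a4* and of 0.124 and 0.0615 for *Slc1a3*. *Slc24a3* had 0.0779 after quantile normalization (limma adjusted p).

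**Figure D5:**
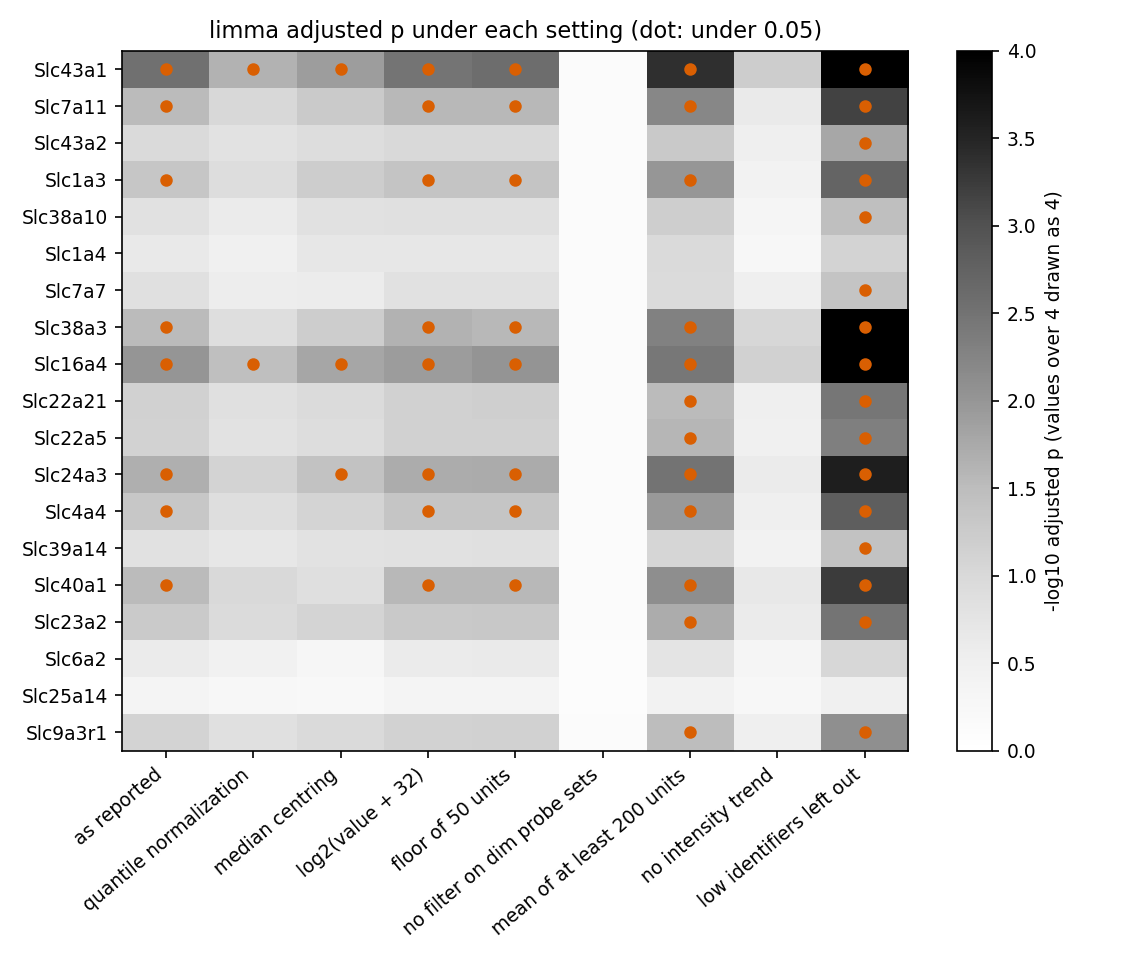
limma adjusted p of each Slc gene (rows) under the reported setting and 8 others (columns), as shade on a -log10 scale, with a dot where it was under 0.05. The reported column has 8 dots, the columns without a filter and without a trend have 0, and the column without the low identifiers has 16.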

How the data were processed

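Total RNA of 3 ATDC5 cultures was hybridized to Mouse Gene 1.0 ST arrays. With dChip, the authors scaled the arrays on rank-invariant probes and summarized them by its expression model. The deposited values are therefore linear intensity units per probe set. Such scaling can remove a shift common to all genes. The array medians still differed after it, and the median log2 fold over all tested probe sets was -0.12. The processing notes name mm9, and the dChip version is not given in the sources used here. The deposited comparison table repeats the intensity of 1524 selected probe sets, equal to the value table for all of them, and adds the SE of the NT array. Its fold changes, bounds and differences are the authors' own comparison and were not used. Its array numbers show a further array, not analysed here.

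Values were floored at 10 units before log2. Probe sets averaging 100 units or more were fitted by lmFit, then eBayes (trend on mean intensity), in limma 3.58.1 (R 4.3.3), both *Tet1* arrays against NT, two-sided, with Benjamini-Hochberg adjustment over 27311 probe sets. This leaves 1 residual degree of freedom and takes the spread of the single NT array to equal that of the *Tet1* arrays. The number of arrays limits the precision. Tested on simulated data, the fit gave the right direction for the changed genes it called, but more false calls than the adjusted threshold allows. Gene names came from the comparison table, and all 19 matched RefSeq (GRCm38.p6) by accession. Neighbours and promoters came from that build.

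The members, substrate classes and lists were chosen with earlier results of these data known. All Slc genes were named. Values on all arrays were required for those that passed limma, were at least 2-fold under both hairpins or led their class. The class of *Slc9a3r1* and the promoters and motifs were chosen after the values were seen. Alternatives were another scaling, floor, pseudocount, filter or trend, and each hairpin alone.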

Additional observations from a re-analysis of the deposited data

How the results depend on the processing

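The count of Slc genes that passed limma was 8, and 8 again with log2(value + 32) and with a floor of 50 units. It was 2 after quantile normalization, 3 after median centring, 0 with no filter on dim probe sets and 0 without an intensity trend. With a minimum mean of 200 units it was 12, and without the probe sets of low identifier 16. The latter have identifiers below that of any probe set named in the table. Leaving them out left 23912 probe sets, of which 5.28% passed, against 1.75% as reported. Over all probe sets tested the count was 478, and it was 222, 353, 0, 108, 775 and 1262 in the same order. With no filter, 2229 probe sets had an unadjusted p under 0.05 in limma, and without a trend 2193. The median log2 fold over all tested probe sets was -0.12 as deposited, 0.04 after median centring and -0.05 after quantile normalization, and the share of calls that were higher was 77.8%, 89.5% and 84.7%, against 62.2% without the low identifiers. The causes were not tested.

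The 2.5-fold size criteria held for 5 Slc genes, for 6 after quantile normalization, for 19 at 1.5-fold and, with 1 *Tet1* array left out, for 4 to 8: 4 with hairpin 1 alone and 8 with hairpin 2 alone. At 1.5-fold without a bound, 11.5% of all probe sets met them. The median difference of hairpin 2 minus hairpin 1 was 0.08 on the log2 scale, 0.08 after quantile normalization and 0.17 after median centring, both chosen after seeing the data. With 1 *Tet1* array left out no test across genes was made, since no residual degree of freedom remains. No paired analysis was possible because there was 1 NT array and the labels give no pairs.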

Other observations

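The Slc genes of the table were counted by chromosome, and chromosome 11 had the most. Chromosome 11 held 6 of the 19 (31.6%), namely *Slc1a4*, *Slc22a5*, *Slc22a21*, *Slc43a2*, *Slc9a3r1* and *Slc38a10*, and all 6 were higher in *Tet1* KD. Of the 1065 other named genes of the table with a chromosome in RefSeq 7.04% lay on chromosome 11, as did 7.35% of protein-coding genes. Apart from the neighbours *Slc22a5* and *Slc22a21*, these genes lie far from each other, with 114 to 661 protein-coding genes between those next in order, and none of the 6 passed limma. The pattern was noticed in the data and was not tested. The share of all mouse Slc genes that lie on chromosome 11 was not determined.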
